A study of Mus musculus with 96 samples.

Results

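Striatal RNA from heterozygous Q140 mice that carry 1 Pms1 copy (Q140 Pms1 het, 8 animals) was compared with striatal RNA from heterozygous Q140 mice with an unaltered Pms1 genotype (Q140, 8 animals). The 16 libraries were chosen by genotype and tissue in the sample titles, and they are 16 of 48 striatal and 96 total libraries. All animals were 6 months old and on a C57BL/6 background, and each group held 4 females and 4 males. Both groups carry 1 Q140 allele, an Htt knock-in with an expanded CAG repeat, so the groups differ by label in the Pms1 genotype only. Groups set beside them were wild type (WT), Pms1 heterozygous without the knock-in (Pms1 het), Pms1 null without the knock-in (Pms1 null), and Q140 mice that lack both Pms1 copies (Q140 Pms1 null), 8 striatal libraries each with the same split by sex. How the Pms1 allele was made is not described in the labels, nor are litters.

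The product of Pms1 belongs to the MutL family of DNA mismatch repair proteins. Mismatch repair acts on the loops that form in CAG repeats, and its proteins set how far an expanded Htt repeat lengthens in somatic cells during life. The striatum is the brain region with some of the most active lengthening, and its main cells, the medium spiny neurons (MSNs), lose expression of their identity genes in Huntington's disease models. Repeat length itself was not measured in the files used here.

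Library totals were 35798997 to 55237836 counts in Q140 and 33035499 to 48376139 counts in Q140 Pms1 het. In all 16 libraries the X- and Y-linked genes matched the labelled sex, and the summed level of 30 pan-MSN genes in CPM, counts scaled to a common library size, exceeded every cortical library. One library stood apart: female replicate 5 of Q140 Pms1 het had a mean level of cortical glutamatergic markers 1.36 log2 units above the Q140 mean, against -0.19 to 0.10 in the other Q140 Pms1 het animals. Each animal has a code of 2 numbers, which the labels do not explain. Codes whose first number is at least 16, called late codes here, belonged to 3 Q140 animals, all male, to 1 male of Q140 Pms1 het and to all 8 Q140 Pms1 null animals.

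The targeted gene was examined first. Pms1 (ENSMUSG00000026098, chromosome 1, 53189187 to 53297018, GRCm38) ranged from 4.38 to 6.28 CPM in Q140 (median 5.39) and from 3.67 to 5.34 CPM in Q140 Pms1 het (median 4.40). All 8 Q140 Pms1 het animals lay below the Q140 median and 4 lay below the lowest Q140 animal, but the groups overlapped. This gave a log2 fold change of -0.25 (SE 0.08), which edgeR did not call after adjustment over all genes (adjusted p = 0.755). The estimate was -0.42 in females and -0.06 in males, and the difference between the sexes was not called (adjusted p = 0.544). Without the knock-in, Pms1 het against WT gave a Pms1 log2 fold change of -0.27, and Q140 Pms1 null against Q140 gave -0.33 (adjusted p = 0.0045), and null animals kept a median of 4.21 CPM, so counts over the whole gene check the genotype only weakly. Htt, the knock-in locus (chromosome 5, 34761740 to 34912534), ranged from 196 to 211 CPM in Q140 and from 200 to 224 CPM in Q140 Pms1 het, with a log2 fold change of 0.03 (SE 0.02, adjusted p = 0.935). Of 17 mismatch repair and repeat modifier genes, Pms1 alone had an unadjusted p below 0.05. Their median log2 fold change was -0.003.

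Across the whole transcriptome, loss of 1 Pms1 copy in Q140 striatum gave no called gene. At an adjusted p below 0.05, edgeR called 0 of 18890 tested genes (0%), the smallest adjusted p being 0.0701. At an unadjusted p below 0.05 there were 1026 genes, 5.43% of those tested, of which 550 were higher (2.91%) and 476 lower (2.52%) in Q140 Pms1 het. The same fit called 1342 genes for Q140 Pms1 null against Q140 (7.1%) and 5909 genes for Q140 against WT (31.3%), both of which share the Q140 animals with the comparison described here. The estimates were narrow. For 15301 genes averaging 1 CPM or more the median SE was 0.0471 on the log2 scale, and for 98.1% of them the 95% interval lay within 1.5-fold in either direction. It lay within 1.2-fold for 81%. Of 119 genes estimated to differ by more than 1.5-fold, 109 had a mean under 1 CPM.

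**Figure D1:**
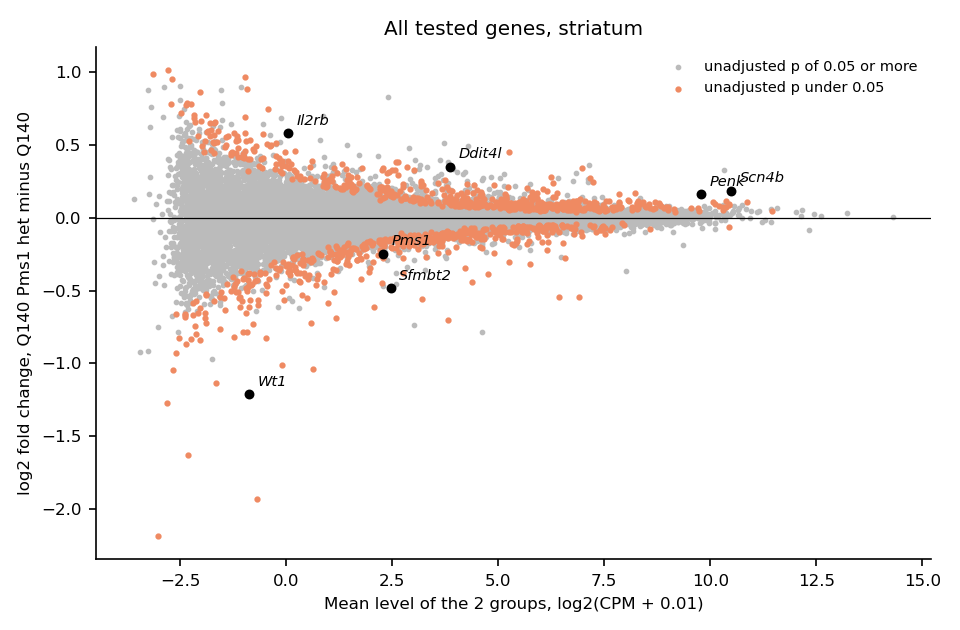
Each point is 1 of 18890 genes, with the mean level of both groups as log2(CPM + 0.01) on the horizontal axis and the edgeR log2 fold change of Q140 Pms1 het against Q140 on the vertical axis; orange points have an unadjusted p below 0.05. The cloud is centred on 0 (median 0.001), and the 7 genes in black are among those described in the text.

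The groups were also compared without a model. In 2 of 18890 genes every Q140 Pms1 het animal was above every Q140 animal, and in 1 gene every one was below. These genes fall outside the naming rule and were singled out after their values were seen. P2rx3, an ATP-gated channel, ranged from 0.405 to 0.701 CPM in Q140 and from 0.704 to 0.94 CPM in Q140 Pms1 het. Slc25a15, the mitochondrial ornithine carrier, had medians of 12.9 and 14.0 CPM, and Tgds, a sugar nucleotide dehydratase, had medians of 6.56 and 5.86 CPM. None was called by edgeR (adjusted p = 0.733 for P2rx3, and 0.88 for both Slc25a15 and Tgds), and none of the 3 was among the largest knock-in responses, with log2 fold changes for Q140 against WT of 0.01, -0.05 and 0.13.

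Sfmbt2 (ENSMUSG00000061186, chromosome 2, 10370510 to 10595253), a Polycomb-group protein with MBT repeats, had the smallest p of all genes. It ranged from 4.64 to 8.23 CPM in Q140 (median 6.47) and from 3.71 to 5.53 CPM in Q140 Pms1 het (median 4.47). All 8 Q140 Pms1 het animals lay below the Q140 median, 5 lay below the lowest Q140 animal, and all were above the highest WT animal, at 2.93 CPM. Its log2 fold change was -0.48 (SE 0.09, adjusted p = 0.0701), with -0.45 in females and -0.52 in males. DESeq2 gave -0.48 with an adjusted p of 0.00829, and Sfmbt2 was the only gene that any alternative fit of this comparison called at an adjusted p below 0.05. In Q140 Pms1 null its median was 3.23 CPM, and the level in Q140 Pms1 het was above that in Q140 Pms1 null (log2 fold change 0.41, adjusted p = 0.00975, and 0.0829 with late or early code as a term).

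Wt1, a zinc-finger transcription factor of the developing kidney that is scarce in adult brain, had the same order of means at a much lower level. It ranged from 0.284 to 1.31 CPM in Q140 (median 0.721), from 0.123 to 0.675 CPM in Q140 Pms1 het (median 0.246), and from 0 to 0.34 CPM in Q140 Pms1 null (median 0.047). Against Q140 the log2 fold change in Q140 Pms1 het was -1.21 (SE 0.33, adjusted p = 0.666), which was not called, with 5 animals below the lowest Q140 animal. Against Q140 Pms1 null it was higher (log2 fold change 1.88, adjusted p = 0.0133). Sfmbt2 and Wt1 were the only 2 of 12 tested ectopic and developmental transcription factor genes with an unadjusted p below 0.05, and the list's median was -0.02. Mafa, a transcription factor of the same list that is strongly lower in Q140 than in WT, averaged 0.675 CPM in Q140 and 0.781 CPM with 1 Pms1 copy (log2 fold change 0.21, SE 0.19).

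**Figure D2:**
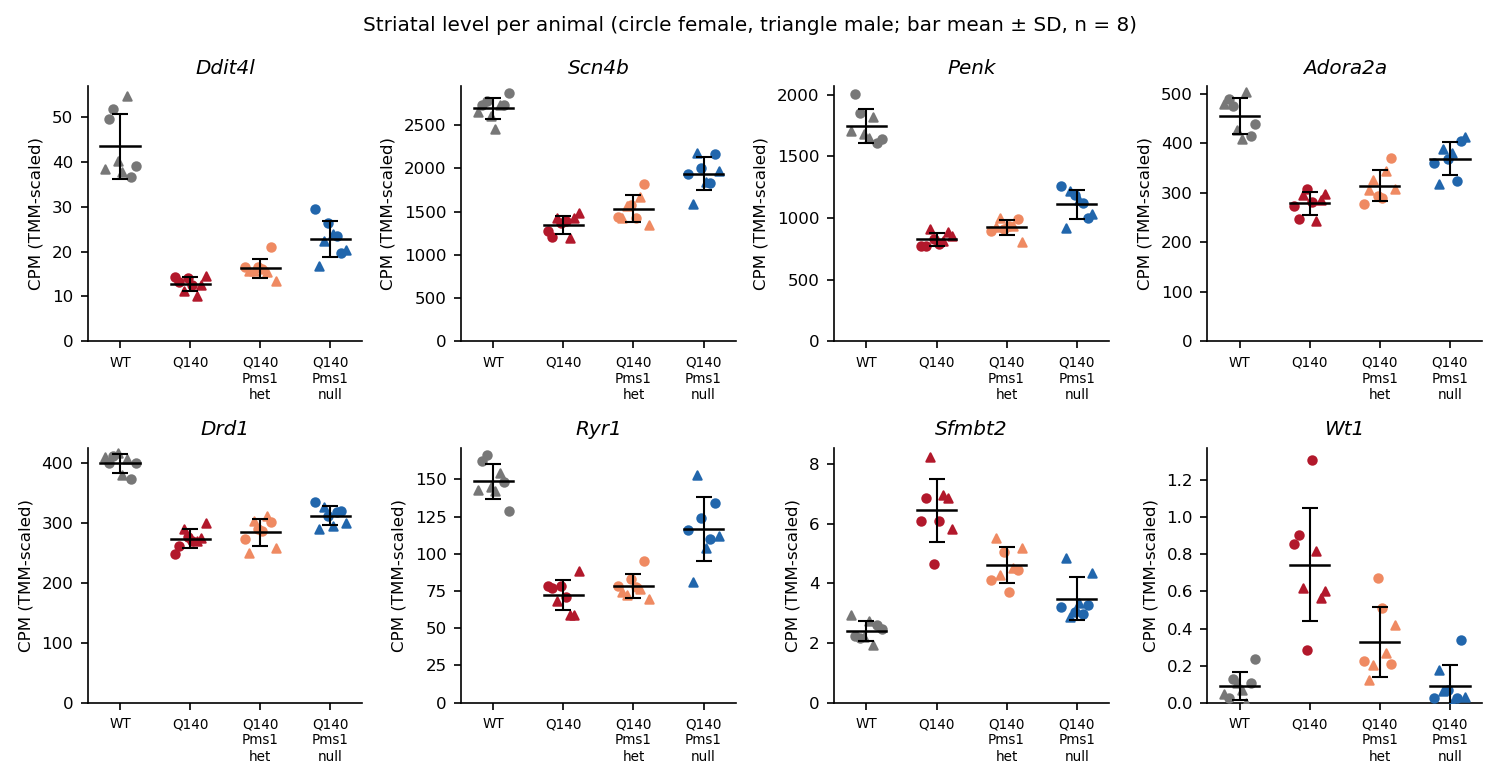
Level of 8 genes in every striatal animal, in TMM-scaled CPM on linear axes that start at 0; circles are females, triangles males, bars the mean ± SD of 8 animals. The Q140 Pms1 het means lie between those of Q140 and Q140 Pms1 null in all 8 panels, and the points of Q140 Pms1 het overlap those of Q140 in each.

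All 30 pan-MSN genes had a positive estimate, with a median log2 fold change of 0.06 and a range from 0.01 to 0.35, where 50.7% of all genes had one. None was called, and 8 of 30 had an unadjusted p below 0.05, all higher in Q140 Pms1 het. Members of the list vary together between animals, so the count of signs is not a count of independent observations. The list was known from earlier results of these data to be low in Q140 (median -0.47 against WT), and the same Q140 animals serve both comparisons. Bulk RNA cannot tell fewer MSNs from less RNA per MSN. Ddit4l, an inhibitor of mTOR signalling, ranged from 10.0 to 14.5 CPM in Q140 (median 12.8) and from 13.5 to 21.0 CPM in Q140 Pms1 het (median 15.9). In 7 of 8 Q140 Pms1 het animals it exceeded the highest Q140 animal, yet it remained far below WT, where the lowest animal had 36.6 CPM. Its log2 fold change was 0.35 (SE 0.09, adjusted p = 0.649).

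Scn4b, the beta-4 subunit of voltage-gated sodium channels, ranged from 1200 to 1480 CPM in Q140 (median 1380) and from 1350 to 1820 CPM in Q140 Pms1 het (median 1500). In 4 of 8 Q140 Pms1 het animals it exceeded the highest Q140 animal. Its estimate on the log2 scale was 0.19 (SE 0.06, adjusted p = 0.755), against 0.52 for Q140 Pms1 null against Q140. The other 6 members with an unadjusted p below 0.05 had log2 fold changes between 0.07 and 0.11 and are named here although the naming rule leaves them out. They were Arpp21, a cAMP-regulated phosphoprotein (0.11), Ppp1r1b, which encodes the dopamine signal integrator DARPP-32 (0.11), the adenylyl cyclase Adcy5 (0.09), the inositol trisphosphate receptor Itpr1 (0.07), the phosphodiesterase Pde1b (0.07) and the anoctamin Ano3 (0.07). Ryr1, a calcium release channel, ranged from 58.7 to 88.4 CPM in Q140 and from 69.5 to 95.2 CPM in Q140 Pms1 het. Its log2 fold change was 0.11 (SE 0.09, adjusted p = 0.936), and 1 Q140 Pms1 het animal exceeded the highest Q140 animal.

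**Figure D3:**
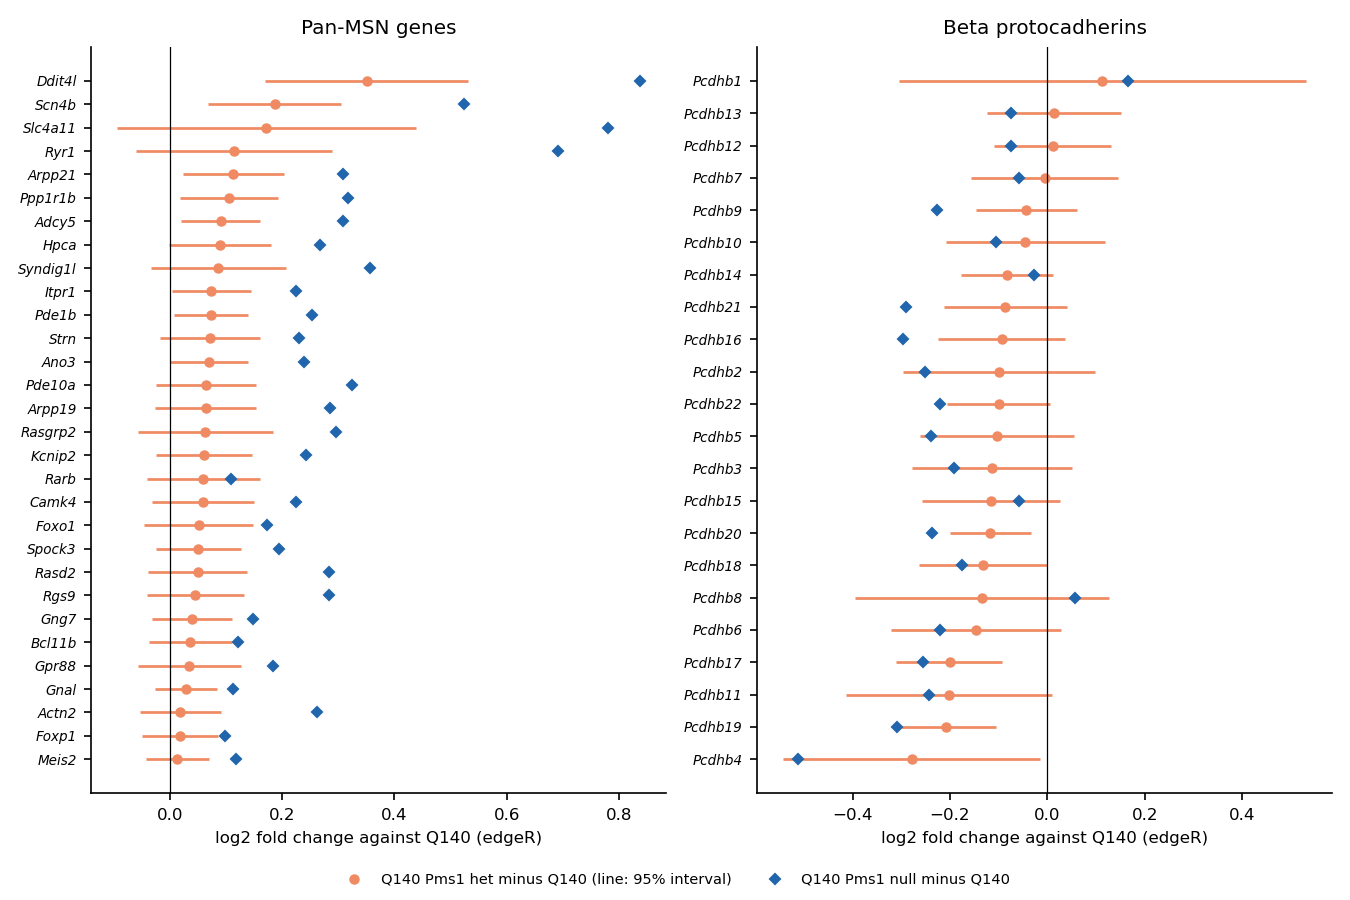
edgeR log2 fold changes of the 30 pan-MSN genes (left) and 22 beta protocadherin genes (right): orange points and lines are Q140 Pms1 het against Q140 with the 95% interval, blue diamonds Q140 Pms1 null against Q140. The 2 comparisons share the Q140 animals. Every orange point on the left lies above 0 and to the left of its blue diamond, and 19 of 22 on the right lie below 0.

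The mean log2 level of the pan-MSN list, set to 0 for the Q140 mean, ran from -0.09 to 0.10 in Q140 (median 0.01) and from -0.04 to 0.23 in Q140 Pms1 het (median 0.07). Only 2 Q140 Pms1 het animals, female replicate 7 and male replicate 6, exceeded the highest Q140 animal. None reached the lowest WT animal, at 0.46, while Q140 Pms1 null animals ran from 0.15 to 0.38. The median over the list was 0.11 in females and 0.03 in males. It was 0.09, with all 30 estimates above 0, among animals with early codes (5 Q140 and 7 Q140 Pms1 het). Among late codes (3 Q140 and 1 Q140 Pms1 het, all male) it was -0.02, with 10 of 30 estimates above 0. Leaving out female replicate 5, which had the raised cortical markers, gave 0.07 with 30 of 30 above 0. No female of the 2 groups had a late code, while 3 of 4 Q140 males and 1 of 4 Q140 Pms1 het males did. Differences between the sexes and between the codes thus cannot be told apart.

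Among genes of the MSNs that project to the external pallidum (the indirect pathway), 8 of 9 had a positive estimate, against 50.7% of all genes. The median was 0.12. This list was low in Q140 (median -0.52 against WT, 5 members called lower and 1 higher), and both comparisons use the same Q140 animals. P2ry1, the 1 called higher and named after its values were seen, had an estimate of 0.26 (SE 0.15) here, away from WT. Penk, the enkephalin precursor, ranged from 770 to 908 CPM in Q140 (median 822) and from 806 to 1000 CPM in Q140 Pms1 het (median 931). It was above the highest Q140 animal in 6 of 8 Q140 Pms1 het animals, with a log2 fold change of 0.16 (SE 0.05, adjusted p = 0.852). Adora2a, the adenosine receptor of these neurons, ranged from 244 to 307 CPM in Q140 and from 277 to 371 CPM in Q140 Pms1 het (log2 fold change 0.17, SE 0.06, adjusted p = 0.849). The third member with an unadjusted p below 0.05, the kainate receptor subunit Grik3, was named after its values were seen; in Q140 it ran from 89.6 to 171 CPM and in Q140 Pms1 het from 157 to 173 CPM, with nearly equal medians of 162 and 161 CPM. The dopamine D2 receptor Drd2 had a log2 fold change of 0.07 (SE 0.05), and the orphan receptor Gpr6 one of 0.04 (SE 0.05).

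Genes of the direct pathway did not share that sign. Of 9 members 4 had a positive estimate and 5 a negative one, the median was -0.02, and none had an unadjusted p below 0.05. Drd1, the dopamine D1 receptor, ranged from 248 to 299 CPM in Q140 and from 249 to 312 CPM in Q140 Pms1 het. Its log2 fold change was 0.05 (SE 0.04), and Pdyn, the dynorphin precursor, stood at 0.11 (SE 0.09). Unlike the indirect-pathway list, this list was not low in Q140 (median -0.01 against WT, 4 members called higher and 3 lower). The 4 called higher, Isl1, Eya1, Tac1 and Ebf1, had negative estimates here. Of the 3 called lower, Drd1 and Chrm4 had positive estimates and Sfxn1 a negative one. Apart from Drd1, these members were named after their values were seen, and both comparisons use the same Q140 animals. Whether the 2 pathways differ was not tested.

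Ion channel, RGS and kinase genes enriched in MSNs had a median of 0.04, with 18 of 20 estimates above 0 and 3 with an unadjusted p below 0.05. The median was 0.08 in females and -0.02 in males, and without composition scaling 15 of 20 estimates were above 0. Rgs14, a regulator of G-protein signalling, ranged from 46.6 to 54.8 CPM in Q140 and from 48.2 to 62.6 CPM in Q140 Pms1 het (log2 fold change 0.14, SE 0.07, adjusted p = 0.906). Kcnj4, an inward rectifier potassium channel, had a log2 fold change of 0.09 (SE 0.04), and Camk2n1, an inhibitor of CaM kinase II named after its values were seen, one of 0.10 (SE 0.05). Prkcb, a protein kinase C isoform, gave 0.02 (SE 0.03). The glutamate and GABA receptor list had a median of 0.004, below 0 without composition scaling, with 9 of 16 estimates above 0. Gabrd, the delta subunit of extrasynaptic GABA-A receptors, ranged from 101 to 115 CPM in Q140 and from 108 to 128 CPM in Q140 Pms1 het and exceeded the highest Q140 animal in 6 of 8 animals (log2 fold change 0.12, SE 0.04, adjusted p = 0.755). Gabra2 (0.34, SE 0.16) was another receptor gene with an unadjusted p below 0.05. It varied widely inside both groups, from 81.0 to 139 CPM in Q140 and from 76.2 to 191 CPM in Q140 Pms1 het.

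Clustered beta protocadherins, adhesion proteins that give neurons individual surface identities, had the opposite sign. Of 22 members 19 had a negative estimate, where 9309 of all 18890 genes had one. The median was -0.10, and 5 members had an unadjusted p below 0.05, all lower in Q140 Pms1 het. The list was high in Q140 (median 0.38 against WT, 14 of 22 called higher), and the same Q140 animals serve both comparisons. As for the pan-MSN list, the count of signs is not a count of independent observations. Pcdhb19 ranged from 22.2 to 28.4 CPM in Q140 (median 26.8) and from 19.9 to 24.5 CPM in Q140 Pms1 het (median 22.7). All 8 Q140 Pms1 het animals lay below the Q140 median and above the highest WT animal, at 19.0 CPM. Its log2 fold change was -0.21 (SE 0.05, adjusted p = 0.543). Pcdhb17 gave -0.20 (SE 0.05, adjusted p = 0.666), and, named after their values were seen, Pcdhb20 gave -0.12 (SE 0.04), Pcdhb4 -0.28 (SE 0.13) and Pcdhb18 -0.13 (SE 0.07). The mean log2 level of the list ran from -0.10 to 0.05 in Q140 and from -0.23 to -0.01 in Q140 Pms1 het; 4 animals of the latter group lay below the lowest of the former. The median was -0.07 in females and -0.13 in males, -0.09 among early codes and -0.12 among late codes. Members of this family are near-identical in places, so counts of single genes are uncertain. Pcdha11 (ENSMUSG00000102206), of the alpha cluster, had a median of 2.48 CPM in Q140 and of 1.77 CPM in the 1-copy animals (log2 fold change -0.51, SE 0.13, adjusted p = 0.543), with 6 animals below the lowest Q140 animal. A second entry of that name, ENSMUSG00000007440 (chromosome 18, 37005203 to 37187657), overlaps this one (37010712 to 37187657). Values of the second entry are not reported here.

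The remaining genes of smallest p were mostly well expressed and had small estimates. Because small p was how they were picked, their separation from Q140 follows in part from that choice. The share of all genes with such separation is not given here. Among those higher in Q140 Pms1 het, Ppp1r1a, an inhibitor of protein phosphatase 1, ranged from 53.4 to 61.5 CPM in Q140 and from 60.2 to 66.7 CPM in Q140 Pms1 het (log2 fold change 0.14, SE 0.03, adjusted p = 0.543). Ctxn1, which encodes cortexin, ranged from 242 to 274 CPM and from 268 to 299 CPM (log2 fold change 0.12, SE 0.03). Pak6, a p21-activated kinase, ranged from 60.4 to 73.0 CPM and from 68.9 to 80.3 CPM (log2 fold change 0.18, SE 0.04). In each of these 3 genes all 8 Q140 Pms1 het animals were above the Q140 median, and the groups overlapped. The actin regulator Cap1 (0.11), the pro-apoptotic BH3-only gene Hrk (0.21), the sestrin Sesn3 (0.11), the Ras-association gene Rassf3 (0.23), the procollagen protease Adamts2 (0.33), the LIM-domain cofactor Lmo2 (0.18), the complex III assembly factor Uqcc2 (0.15) and Nipal4 (0.38) also had all 8 animals above the Q140 median, with adjusted p-values from 0.59 to 0.666. Among those lower, the mitochondrial lipid gene Serac1 ranged from 25.4 to 27.8 CPM in Q140 and from 23.2 to 25.9 CPM in Q140 Pms1 het, with 6 animals below the lowest Q140 animal (log2 fold change -0.13, SE 0.04, adjusted p = 0.666). Zfp983 (-0.18), the NMDA receptor subunit Grin2c (-0.16) and the microtubule-associated gene Rmdn1 (-0.15) had 7, 5 and 5 animals below the lowest Q140 animal. The higher genes of this paragraph, except Uqcc2 and Nipal4, were called lower in Q140 than in WT (-0.26 for Sesn3 to -0.84 for Hrk). Among the lower genes, Serac1 and Rmdn1 were called higher in Q140 than in WT, Grin2c lower, and Zfp983 was not called. The same Q140 animals serve both comparisons.

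Several genes with the largest knock-in responses had wide intervals here. Il2rb, the interleukin-2 receptor beta chain, ranged from 0.473 to 1.04 CPM in Q140 and from 0.864 to 2.00 CPM in Q140 Pms1 het, above the highest Q140 animal in 6 of 8 (log2 fold change 0.58, SE 0.17, adjusted p = 0.686). The copine Cpne9 gave 0.25 (SE 0.12), the lipid-binding gene Sec14l3 0.33 (SE 0.15), the glutathione peroxidase Gpx6 0.29 (SE 0.15), the sarcomere gene Ttn -0.18 (SE 0.12) and the desmosome gene Dsp -0.32 (SE 0.18). None was called. The desmosome and sarcomere list had 5 estimates above 0 and 7 below. Against WT, 6 of its members were called higher in Q140, all with negative estimates here, and 4 lower, all with positive ones. None of these estimates was called, and the same Q140 animals serve both comparisons.

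Immediate early genes, which neurons switch on after activity, had the most positive median of any list, 0.25, with 18 of 18 estimates above 0, but levels varied widely between animals. The mean log2 level of the list ran from -0.76 to 0.89 in Q140 and from -0.08 to 0.63 in Q140 Pms1 het, wholly inside the Q140 range. The median was 0.72 in females and -0.18 in males. Egr2 ranged from 2.69 to 25.8 CPM in Q140 and from 9.54 to 21.2 CPM in Q140 Pms1 het (log2 fold change 0.40, SE 0.30). Jun alone of the list had an unadjusted p below 0.05 (0.17, SE 0.08).

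**Figure D4:**
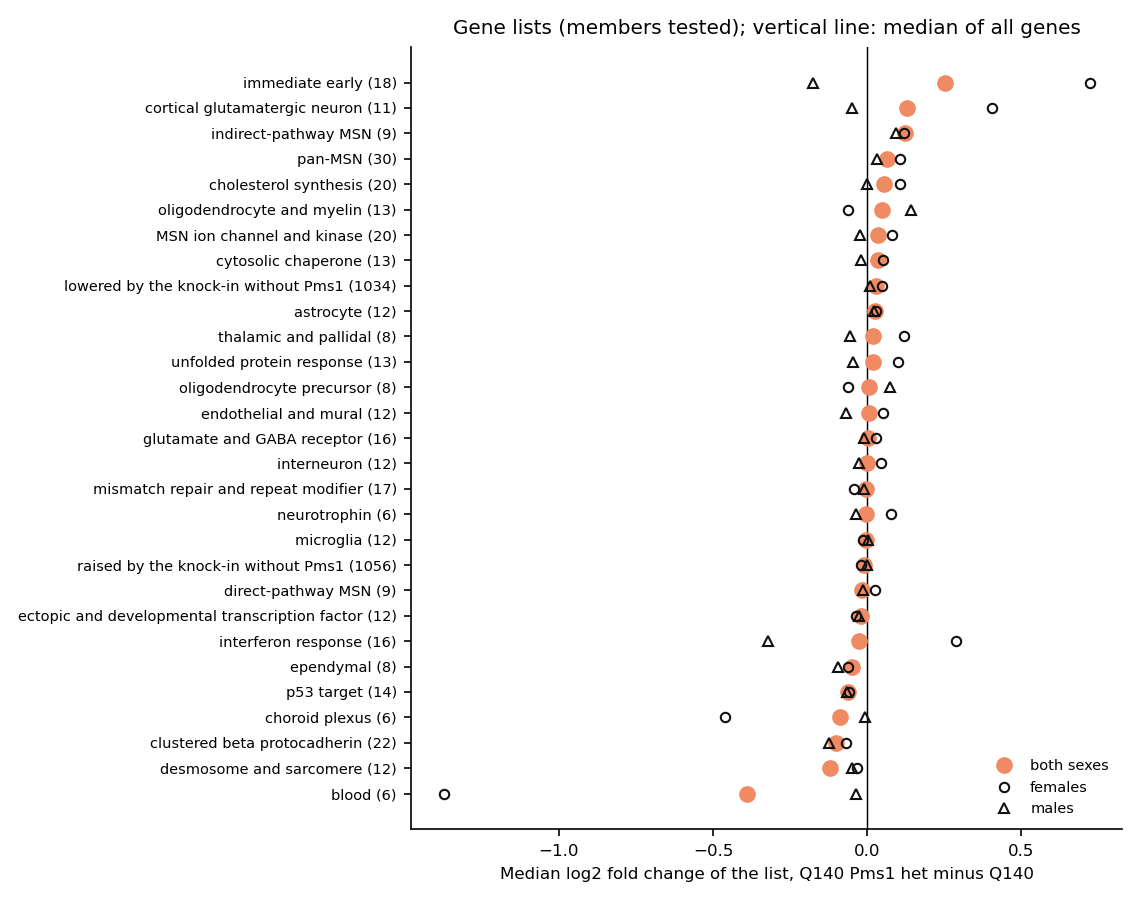
Median edgeR log2 fold change of each gene list for Q140 Pms1 het against Q140, with the number of tested members in brackets; filled orange circles are both sexes, open circles females and open triangles males. In both sexes the pan-MSN, indirect-pathway and astrocyte lists are among those to the right of the median of all genes (0.001). Beta protocadherins are among those to the left in both sexes, as are p53 target, ependymal, choroid plexus and blood genes. The MSN ion channel and kinase, immediate early and interferon lists are among those with opposite signs in the 2 sexes.

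Medians of lists of other cell types were 0.03 for astrocytes, -0.01 for microglia, 0.01 for oligodendrocyte precursors, 0.01 for endothelial and mural cells and -0.002 for interneurons, those of precursors and endothelial cells falling below 0 without composition scaling. The median of all genes was 0.001. Oligodendrocyte and myelin genes had a median of 0.05, with 10 of 13 estimates above 0, which is larger than that of the MSN channel list and close to that of the pan-MSN list; it was -0.06 in females and 0.14 in males. Ependymal genes had -0.05 (5 of 8 below 0), choroid plexus genes -0.09 (5 of 6 below 0) and thalamic and pallidal genes 0.02. Summed astrocyte markers ran from 4145 to 4493 CPM in Q140 and from 4068 to 4567 CPM in Q140 Pms1 het. Summed microglial markers ran from 440.7 to 513.6 CPM and from 446.0 to 521.0 CPM, and summed myelin markers from 5160 to 7480 CPM and from 5847 to 7494 CPM. The groups overlapped in each. The median of 11 cortical glutamatergic markers was 0.13, and -0.01 without female replicate 5, whose Neurod2 level was 2.69 CPM against 0.269 to 0.551 CPM in the other Q140 Pms1 het animals. Haemoglobin and blood-cell genes had a median of -0.39 over 6 weakly expressed genes, whose sum ran from 4.10 to 23.2 CPM in Q140 and from 3.18 to 33.2 CPM in Q140 Pms1 het. Cholesterol synthesis genes had a median of 0.06 (16 of 20 above 0), cytosolic chaperones 0.03, the unfolded protein response 0.02, p53 targets -0.06 (10 of 14 below 0), and neurotrophin genes -0.004. The interferon list had -0.03, with 0.29 in females and -0.32 in males. The part of these levels in the MSN values was not tested.

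Animals with 1 copy were next set against animals with none. Between Q140 Pms1 het and Q140 Pms1 null, edgeR called 715 of 18890 genes (3.79%), 194 higher and 521 lower in Q140 Pms1 het. Without scaling for RNA composition the count was 1066, with 702 higher and 364 lower. All Q140 Pms1 null animals have late codes, against 1 of 8 Q140 Pms1 het animals, so the code and the genotype are nearly inseparable; with the code as a term 141 genes were called, 21 higher and 120 lower. Leaving out female replicate 5 of Q140 Pms1 het gave 412, and leaving out replicate 8 of Q140 Pms1 null gave 445.

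Many pan-MSN, indirect-pathway and MSN channel and kinase genes were lower with 1 copy than with none, and most direct-pathway genes were not called. Of 30 pan-MSN genes 23 were called lower and none higher, and of 9 indirect-pathway genes 5 were lower. Of all 18890 genes 521 were called lower, and 3.79% were called in either direction. With the code as a term 11 of 30 and 3 of 9 were lower, and with any 1 library of these groups left out 18 to 26 of 30 and 3 to 5 of 9. The 3 indirect-pathway genes came without Q140 Pms1 het replicate 1 or 4 or Q140 Pms1 null replicate 1. Of 20 channel, RGS and kinase genes 11 were called lower and none higher, 2 with the code as a term, and 6 to 12 with 1 library left out (6 or 7 without Q140 Pms1 het replicate 5 or 8 or Q140 Pms1 null replicate 1 or 3). Of 9 direct-pathway genes 2 were called lower, Drd1 (-0.13, adjusted p = 0.03) and, named after its values were seen, the muscarinic receptor Chrm4 (-0.25, adjusted p = 0.00152), and none with the code as a term. One of the 2 calls was lost without Q140 Pms1 het replicate 1, 2, 5 or 8 or Q140 Pms1 null replicate 1, 3 or 7. The median of the direct-pathway list was -0.03, with 5 estimates below 0. Drd1 and Chrm4 were called lower in Q140 than in WT, and Isl1, Ebf1, Tac1 and Eya1 were called higher. The latter 4 had positive estimates (0.01 to 0.14) against Q140 Pms1 null that were not called with all libraries and TMM scaling. However, 1 member of the list was called higher without composition scaling. The same count was found without Q140 Pms1 het replicate 5 or Q140 Pms1 null replicate 4, 7 or 8. Ryr1 had a median of 76.8 CPM with 1 copy and of 114 CPM with none (log2 fold change -0.58, adjusted p = 0.000162, and 0.00372 with the code as a term). Scn4b (-0.34, adjusted p = 0.000548), Ddit4l (-0.49, adjusted p = 0.000722), Penk (-0.26, adjusted p = 0.00264) and Drd2 (-0.26, adjusted p = 0.000576) were lower as well, as were Ppp1r1a (-0.22, adjusted p = 0.000162) and Hrk (-0.36, adjusted p = 0.000199). Each of these 7 stayed below an adjusted p of 0.05 with the code as a term. Of 23 named genes that were called in this contrast, picked after their values were seen, 12 did and 11 did not; Prkcb (adjusted p = 0.0597), Adora2a (0.0571) and Sfmbt2 (0.0829) were among those that did not. This comparison uses the same Q140 Pms1 het animals as the main one and no Q140 animal.

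The level with 1 copy was then tested against the midpoint of Q140 and Q140 Pms1 null. At an adjusted p below 0.05 edgeR called 0 genes. There were 1585 genes (8.39%) at an unadjusted p below 0.05, and the smallest adjusted p was 0.252. DESeq2 called 1, Grin2c, which ranged from 46.6 to 55.7 CPM in Q140 Pms1 het (median 48.9), against a median of 54.2 CPM with both copies and of 58.7 CPM with none. It was lower than in Q140 Pms1 null (log2 fold change -0.22, adjusted p = 0.00221). Nipal4 and Rmdn1 also lay outside the span of the other 2 groups' means, at 6.84 CPM against 5.24 and 5.18 CPM for Nipal4 and at 12.0 CPM against 13.4 CPM in both for Rmdn1. Neither was called off the midpoint by edgeR (adjusted p = 0.374 for Nipal4 and 0.433 for Rmdn1). Other genes, among them Pak6 and Uqcc2, lay outside that span too, and the share over all genes is not given here. Failing to differ from the midpoint does not place a gene there, since most genes did not differ from Q140 either.

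A list free of shared animals was drawn from Q140 Pms1 null against Pms1 null, in which edgeR called 2090 genes (11.1%), 1034 lower and 1056 higher with the knock-in. The 1034 genes lowered by the knock-in without Pms1 had a median log2 fold change of 0.03 in Q140 Pms1 het against Q140, with 749 estimates above 0 and 285 below. At an unadjusted p below 0.05, 113 were higher and 18 lower, against 2.91% and 2.52% of all genes. The 1056 raised genes had a median of -0.01, with 394 above 0 and 662 below; 10 were higher and 56 lower at an unadjusted p below 0.05. Over both lists 1411 of 2090 estimates (67.5%) had the sign opposite to the knock-in. These genes are correlated within animals, and no test was made of the counts.

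In single animals the shift was small. The mean log2 level of the lowered genes ran from -0.04 to 0.08 in Q140 and from -0.03 to 0.06 in Q140 Pms1 het, so that no Q140 Pms1 het animal exceeded the highest Q140 animal, and in WT it ran from 0.31 to 0.36. For the raised genes it ran from -0.05 to 0.02 in Q140, from -0.03 to 0.01 in Q140 Pms1 het and from -0.25 to -0.21 in WT. The lowered genes had a median of 0.05 in females and 0.01 in males, 0.04 among early codes and -0.02 among late codes. For the raised genes the median was -0.02 in females, -0.001 in males and 0.01 among late codes. Of the 96 genes lowered more than 1.5-fold 62 had an estimate above 0 (median 0.11), and of the 57 raised more than 1.5-fold 31 had one below 0 (median -0.01).

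**Figure D5:**
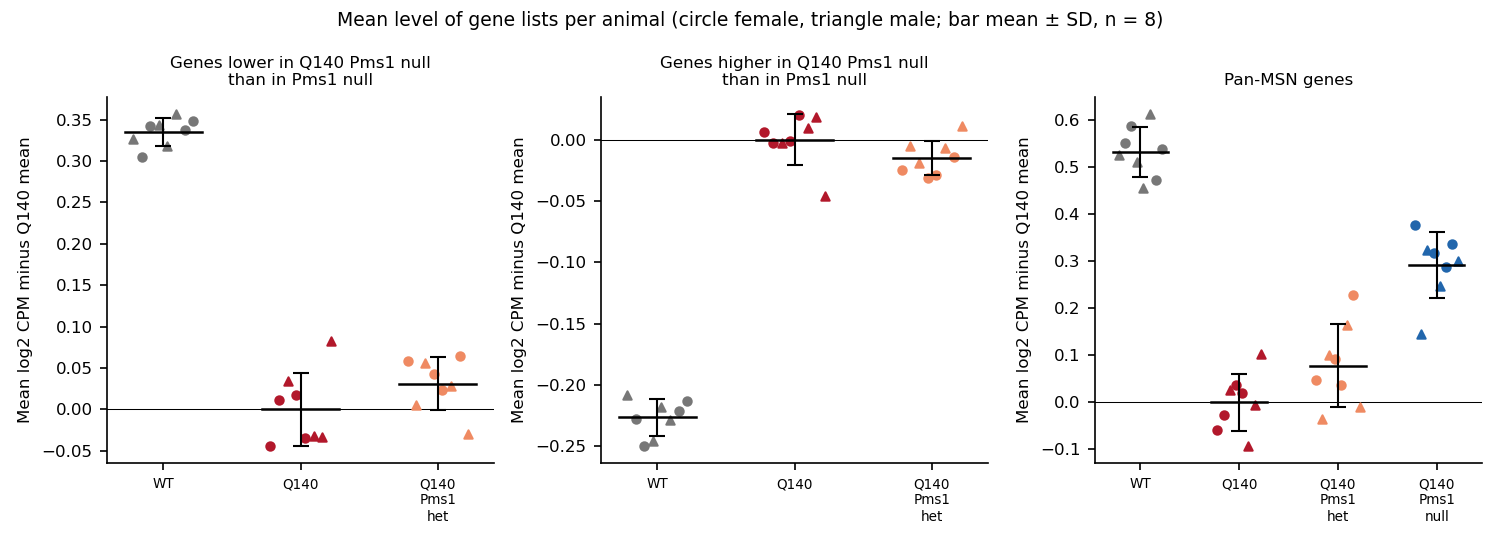
Mean log2 CPM per animal, set to 0 at the Q140 mean, of genes lowered (left, 1034) and raised (centre, 1056) by the knock-in without Pms1, and of the 30 pan-MSN genes (right); circles are females, triangles males, bars the mean ± SD of 8 animals. Q140 Pms1 null is left out where it chose the genes. Q140 Pms1 het overlaps Q140 in every panel and stays apart from WT.

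The effect of 1 lost copy was compared between sexes, genetic backgrounds and tissues. In females alone and in males alone edgeR called 0 genes, with 1139 and 1485 at an unadjusted p below 0.05, and the test of the difference between the sexes called 0 (1543 at an unadjusted p below 0.05; DESeq2 called 7). All late codes of the 2 groups were in males, so sex and code cannot be told apart in such differences. Without the knock-in, Pms1 het against WT called 0 genes (1882, or 9.96%, at an unadjusted p below 0.05). Late codes belonged to WT replicates 7 and 8, both female, and to no Pms1 het animal. The interaction, the knock-in effect with 1 copy minus that with both copies, called 0 genes with edgeR. There were 1619 genes (8.57%) at an unadjusted p below 0.05, and the smallest adjusted p was 0.0948. DESeq2 called 13 genes for the interaction, 12 of them with a positive difference. Pms1 het and WT share no animal with the main comparison. Of its 1026 genes with an unadjusted p below 0.05, 453 (44.2%) had the same sign in Pms1 het against WT, against 47.4% of all tested genes. Sfmbt2 gave -0.02, Ddit4l -0.07, Scn4b -0.11 and Penk -0.04 there. The median of the beta protocadherin list was as far below 0 without the knock-in, at -0.11 in Pms1 het against WT beside -0.10 in the main comparison, and the median of the interaction was -0.01. Its mean log2 level, set to 0 for Q140, ran from -0.47 to -0.17 in WT and from -0.60 to -0.29 in Pms1 het, which overlap. The pan-MSN and indirect-pathway lists both had medians of -0.02 in Pms1 het against WT, and of 0.08 and 0.12 for the interaction. In the cortex of the same animals Q140 Pms1 het against Q140 called 0 of 18711 genes (1065 at an unadjusted p below 0.05), where Sfmbt2 gave -0.16 and Pms1 -0.01.

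The spread within groups was close. Among the same 15301 genes the median SD of log2 CPM was 0.095 in Q140 Pms1 het and 0.088 in Q140, and 56.7% of the genes had the larger SD in Q140 Pms1 het.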

How the data were processed

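Values were deposited as raw counts of reads, whole numbers for each gene in each library. A deposited table of FPKM values by the authors was used for 1 alternative fit, as log2(FPKM + 0.1). Libraries came from a stranded TruSeq kit and RNeasy-purified RNA, per the labels' protocols. STAR 2.7.5c, SAMtools 1.10, HTSeq 0.12.3, GRCm38 and mm10 are named in the submitters' processing notes; no source used here gives the strand setting or annotation release, so overlapping and antisense genes are uncertain. Coordinates are from GENCODE M21, in which 48435 of 48795 identifiers occur.

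The test was edgeR 4.0.16 under R 4.3.3 (TMM scaling, filterByExpr, robust quasi-likelihood fit) over all 48 striatal libraries with genotype and sex as terms; cortex was fitted alike. Calls are at a Benjamini-Hochberg adjusted p below 0.05, and adjusted p-values are edgeR's unless another tool is named. Alternatives used DESeq2 1.42.0, limma 3.58.1, other scaling, filters, subsets and each library left out. CPM values are TMM-scaled. No 2 of the 56 library pairs within the groups matched to within sampling noise (chi-square per degree of freedom at least 3.68). P-values take the animals as independent.

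The text names Pms1, Htt, the 12 genes of smallest p in each direction (mean of at least 1 CPM, no predicted-gene name, same direction in both sexes), up to 2 members of smallest p in each list, and large knock-in responses; a selection is printed, and a few are not reported here. The comparison, the lists and the naming rule were chosen with earlier results of these data known.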

Additional observations from a re-analysis of the deposited data

Results flagged for a closer look

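In groups of 8, a sample was singled out when its gap to the nearest animal exceeded 0.526 of the group's range; 10 of 182 sets of values met this, and chance gives about 1 in 20. Female replicate 7 of Q140 Pms1 het was the highest of its group for Ddit4l (21.0 CPM, others 13.5 to 16.6), Sec14l3 (8.98 CPM, others 5.15 to 6.75) and Pcdhb17 (25.4 CPM, others 20.5 to 22.8). Female replicate 5 of Q140 Pms1 het was the highest for Neurod2 (2.69 CPM, others 0.269 to 0.551) and for the cortical glutamatergic list (1.358 log2 units above the Q140 mean, others -0.187 to 0.098). Male replicate 2 of Q140 Pms1 het was the highest for the oligodendrocyte and myelin list (0.305, others -0.104 to 0.072) and the oligodendrocyte precursor list (0.221, others -0.043 to 0.010). In Q140, male replicate 7 was the highest for the interferon list (0.776, others -0.307 to 0.165). Male replicate 8 was the highest for Ppp1r1b (2010 CPM, others 1700 to 1830) and the lowest for genes raised by the knock-in without Pms1 (-0.046, others -0.003 to 0.020). The part of any of these in the comparison was not tested.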

How the results depend on the processing

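The count of called genes for Q140 Pms1 het against Q140 was 0 in edgeR and 1 (Sfmbt2, lower) with no filter on low counts, with DESeq2, with limma voom without a block and at an adjusted p below 0.10; it was 1026 at an unadjusted p below 0.05. Leaving out 1 library gave 0 to 1, the 1 being Sfmbt2 without Q140 replicate 4 (adjusted p = 0.00923), Q140 replicate 8 (0.0365) or Q140 Pms1 het replicate 4 (0.0395). With the first code number as a replicate block (correlation 0.133) the count was 0; the codes do not say what the number pairs. For Q140 Pms1 het against Q140 Pms1 null the count of 715 became 141 with the code as a term and 412 to 968 with 1 library left out. DESeq2 called 1 gene off the midpoint, 13 for the interaction and 7 for the difference between sexes, where edgeR called 0; the cause was not tested.

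Of 1860 pairs of a named gene and an alternative, 27 turned the sign by at least 1 SE or past the threshold, and 2 others by less. Among late codes only, an alternative added after seeing the data with 1 Q140 Pms1 het animal assumed to vary like the other groups, the log2 fold change was -0.007 for Htt, -0.016 for Scn4b, -0.075 for Penk, -0.036 for Drd2, -0.083 for Gpr6, -0.119 for Drd1, -0.037 for Rgs14, -0.076 for Kcnj4, -0.075 for Prkcb, -0.392 for Gabra2, -0.016 for Lmo2, -0.446 for Mafa, -0.181 for Gpx6, 0.306 for Ttn, -0.201 for Egr2, 0.087 for Pcdhb4, -0.029 for Adcy5, -0.064 for Arpp21, -0.002 for Ppp1r1b, -0.012 for Pde1b, -0.05 for Itpr1 and -0.041 for Ano3. In males only it was -0.012 for Drd1, -0.012 for Prkcb and -0.219 for Egr2, and in females only 0.021 for Dsp and 0.023 for Pcdhb18. Without composition scaling the median of all genes moved from 0.001 to -0.009, and the medians of the receptor, endothelial and oligodendrocyte precursor lists turned below 0.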
